A study of Zea mays with 168 samples.

Results

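Line 301 is 1 of 4 maize (Zea mays) inbred lines whose primary roots were profiled together with all 12 reciprocal hybrids between the lines, and the samples are described here by how many of the 2 parental genomes came from it. A sample had 0 copies of line 301 in the inbred lines 002x002, 005x005 and 250x250 and in the hybrids 002x005, 005x002, 002x250, 250x002, 005x250 and 250x005. It had 1 copy in the hybrids 002x301, 301x002, 005x301, 301x005, 250x301 and 301x250, and 2 copies in the inbred line 301x301. The genotype names put 1 parent before the x and the other after it, and the labels do not say which was the mother. Each slide held a pair of samples, and 76 of the series' 84 slides were used, with 86 samples of 0 copies, 47 of 1 copy and 19 of 2 copies. The other 16 samples lie on 8 slides that were left out of every main value.

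Roots were harvested 3.5 days after germination, and each biological replicate pooled about 20 of them, so that a level is an average over plants and over all the cell types of the root. Polyadenylated RNA was turned into cDNA labelled with Cy3 or Cy5, and the cDNAs of a pair of samples were hybridised to 1 slide spotted with maize cDNA clones. In bulk roots, fewer cells of a type and less RNA per cell cannot be told apart. No defining markers of root cell types could be looked up, because the spots carry accession identifiers and only 8 of the 11431 identifiers tested matched a gene in the table of maize RefSeq genes, on 10 spots.

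A hybrid of inbred lines carries 1 genome from each parent. Where each parental allele contributes its transcripts independently, the hybrid's level lies midway between the levels of its parents, which is called additive expression, and a departure from that midpoint is called non-additive or dominant. Maize is the classic plant for such comparisons because its hybrids outgrow their inbred parents, and the primary root shows that difference within days of germination. The fits here are on log2 values, where the midpoint of unequal parents is their geometric mean and lies below the midpoint of the transcript amounts. A trend per copy of line 301 and the departure of the 1-copy group from the straight line are therefore log2 quantities, and a departure of 0 is not the same as additive amounts.

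Most slides did not compare copies of line 301. Of the 76 slides used, 19 set 301x301 against one of its hybrids (2 and 1 copies), 18 set a hybrid of line 301 against its other parent (1 and 0 copies), 5 set reciprocal hybrids of line 301 against each other, and 34 held genotypes without line 301. No slide set 301x301 against a 0-copy genotype, and the only 0-copy samples beside a hybrid of line 301 were the inbred lines 002x002, 005x005 and 250x250. The 0-copy hybrids therefore entered the fit only through the dye effect and the spread. By partner line, the 2 and 1 slides numbered 6 with line 002, 6 with line 005 and 7 with line 250, and the 1 and 0 slides numbered 7, 6 and 5 in the same order. The sample with more copies was labelled with Cy5 on 10 of the 19 slides with 2 and 1 copies and on 6 of the 18 slides with 1 and 0 copies.

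The level of signal differed widely between samples of the same number of copies. The share of tested spots brighter than the 97.5th percentile of the blank spots along the print edges had a median of 42.5% over samples with 0 copies (6.893% to 89.76%), 58.1% with 1 copy (10.31% to 93.92%) and 63.8% with 2 copies (6.969% to 91.33%). Among the 1-copy hybrids the median ranged between 23.8% in 301x002 and 83.3% in 250x301. The ranges of all 3 dose groups overlapped over nearly their whole width, and among the 1-copy hybrids the share moved with the partner line. For this reason levels on different slides were not set against each other: each spot's log2 difference between the samples of 1 slide was fitted on the difference in copies, with the dye as a covariate. Values under 3 on the log2 scale, far below the blanks, made up 13.85% of the tested spots in both samples of slide 999 and about 4.1% in those of slide 998, both of which pair 301x301 with 301x002.

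Slides whose samples differed by 1 copy of line 301 showed about as much spread between their samples as slides whose samples had equal copies. The SD over spots of the within-slide log2 difference averaged 0.4921 ± 0.1526 on the 37 slides that differed by 1 copy and 0.4695 ± 0.1814 on the 39 slides with equal copies (SD over slides). The difference in mean, 0.02255, was within the spread between slides (permutation test over slides, two-sided, 100000 resamples, p = 0.559). Within the 4 ranges of slide numbers, which are the only grouping of slides the labels offer, the difference was -0.02372 (slides 0 to 61, permutation p = 0.705), -0.0777 (273 to 309, p = 0.432), 0.09315 (471 to 561, p = 0.378) and 0.1018 (916 to 999, p = 0.157, all by the same permutation test). The single widest slide, with an SD of 0.951, held no line 301 and set 250x250 against 002x250. Most slides with 0 and 0 copies likewise set another inbred line against one of its hybrids, and so differed by 1 copy of that line. The slides with equal copies are therefore no baseline of like genotypes. Their similar spread cannot show whether a copy of line 301 adds to the difference between samples.

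**Figure D1:**
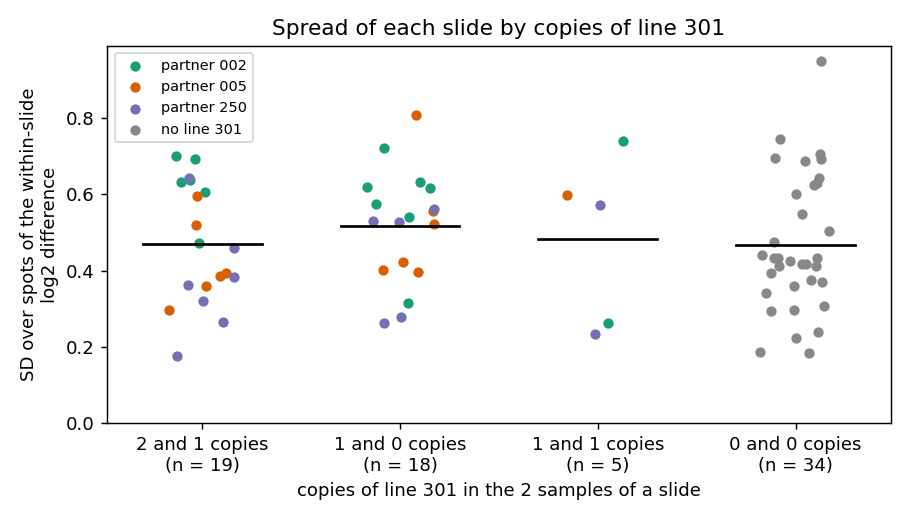
Each point is 1 slide, its height the SD over spots of the log2 difference between the 2 samples of that slide, by the copies of line 301 in those samples and coloured by partner line; the black line is the mean of the group. The means of slides with 2 and 1 copies (0.469) and with 1 and 0 copies (0.5164) lie beside those of slides with 1 and 1 (0.4822) and 0 and 0 copies (0.4677).

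No transcript followed the number of copies of line 301 over all 3 partner lines beyond the spread between slides. Over 11838 spots, limma's moderated test of the trend per copy called 0 spots at an adjusted p (Benjamini-Hochberg over all spots) under 0.05, which is 0% of those tested, and the smallest adjusted p was 0.941. At an unadjusted p under 0.05 it called 2.32% of the spots, 0.988% higher and 1.33% lower with more copies. The estimates ran from -0.46 to 0.39 log2 per copy with a median standard error of 0.0738, and their quartiles were -0.0395 and 0.0448. A test that gives no call does not show equal levels, but the intervals bound the size: the 95% interval of the trend lay within 0.25 log2 of 0 for 9560 spots (80.8%), within 0.5 for 11719 (99%) and within 1 for all 11838. These are intervals of each spot alone, and the number of slides limits them. They bound the trend pooled over the 3 partner lines, not the trend with each partner. AW066750, for example, had a pooled trend of 0.03 log2 per copy (95% interval -0.29 to 0.35). Its trends were 0.61 with line 002, 0.52 with line 005 and -1.17 with line 250.

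The 1-copy hybrids as a whole did not leave the line between 0 and 2 copies at any spot that passed the test either. The departure, the 1-copy level minus the midpoint of the 0-copy and 2-copy levels, was called at 0 of 11838 spots (0%) by limma, with a smallest adjusted p of 0.336. At an unadjusted p under 0.05 there were 464 spots (3.92%), with 237 above the line and 227 below it. The estimates ran from -0.4 to 0.57 log2, the 95% interval reached a median of 0.147 to either side of the estimate, and the interval lay within 0.5 log2 of 0 for 11676 spots (98.6%). This bound is likewise of the departure pooled over the partner lines, not of the departure with each partner. More spots had an unadjusted p under 0.05 for the departure than for the trend.

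Of the single transcripts with the smallest p for the trend, those higher with line 301 differed by about 0.2 log2 per copy. None of the spots named in this and the following paragraphs on trend and departure was called. The spot of AI714914 lay at medians of 9.63, 9.88 and 10.13 log2 in samples with 0, 1 and 2 copies, with overlapping ranges (8.39 to 11.37, 8.08 to 11.68 and 8.50 to 11.50). Within slides it was higher in the sample with more copies on 10 of 18 slides with 1 and 0 copies (median 0.05 log2, -0.93 to 0.94) and on 15 of 19 slides with 2 and 1 copies (median 0.15, -0.23 to 1.39). Its trend was 0.22 ± 0.06 log2 per copy (SE, unadjusted limma p = 0.00057, adjusted p = 1). It was a dim spot, above the blanks in 23.3% of samples with 0 copies, 38.3% with 1 copy and 52.6% with 2 copies. The median level over all tested spots was likewise 10.16, 10.27 and 10.81 log2 in the same order (medians over samples). The median share of tested spots above the blanks was 42.5%, 58.1% and 63.8%. Levels by copies, here and below, carry this shift of the signal of whole samples and are not read as a response to copies.

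The spot of BG841623 had a trend of 0.24 ± 0.07 log2 per copy (adjusted limma p = 1). Its within-slide difference was higher with more copies on 14 of 18 slides with 1 and 0 copies, with a median of 0.45 log2 (-0.42 to 1.23), and on 12 of 19 slides with 2 and 1 copies, with a median of 0.17 (-0.67 to 0.71). Most of its trend thus came with the first copy: the step from 0 to 1 copy was 0.41 ± 0.10 log2 and the step from 1 to 2 copies 0.08 ± 0.09, although the departure, 0.17 ± 0.07, was not called (adjusted p = 1). A second spot of the same identifier, elsewhere on the slide, gave a trend of 0.03 ± 0.08 and a departure of 0.23 ± 0.08. The other named spots on this side were AI649699 (0.19 ± 0.06 log2 per copy) and AI668218 (0.23 ± 0.08), each higher on 11 of 18 slides with 1 and 0 copies and on 14 and 12 of 19 slides with 2 and 1 copies.

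The 4 spots of smallest p on the other side, lower with more copies of line 301, had their largest fall with partner line 250. AI491509 had the smallest p of all spots (trend -0.42 ± 0.10 log2 per copy, unadjusted limma p = 7.9e-05, adjusted p = 0.94), and its steps were alike, -0.43 ± 0.15 from 0 to 1 copy and -0.42 ± 0.14 from 1 to 2 copies. On the 5 slides that set a hybrid of lines 301 and 250 against 250x250, its difference, hybrid minus line, was -0.44, -1.599, -1.737, -0.134 and -2.017. On the 7 slides that set 301x301 against such a hybrid it was -0.002, -1.55, 0.03, -2.063, -3.071, 0.085 and 0.56, so that 3 slides carried the fall and 4 lay at or above about 0. With partner 002 the slide medians were -0.10 (1 minus 0) and -0.40 (2 minus 1), and with partner 005 they were -0.13 and 0.02. Fitted per partner, the trend of AI491509 was -0.24 ± 0.16 with line 002, -0.06 ± 0.16 with line 005 and -1.02 ± 0.16 with line 250 (adjusted limma p = 0.7, 1 and 0.00019 in that order).

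AI600643 (-0.36 ± 0.09 log2 per copy), AI619100 (-0.25 ± 0.07) and AI861197 (-0.27 ± 0.08) were alike in this. With partner 002 they had trends of -0.34 ± 0.15 (unadjusted limma p = 0.028), -0.21 ± 0.12 and -0.16 ± 0.12, none of which was called (adjusted p = 0.53, 0.61 and 0.75). Their trends with partner 250 were -0.83 ± 0.16, -0.47 ± 0.12 and -0.65 ± 0.13 (adjusted limma p = 0.002, 0.022 and 0.0024), and with partner 005 they were 0.06 ± 0.16, -0.10 ± 0.12 and -0.03 ± 0.13. On slides printed as 32 blocks of 19 grid columns, AI491509 and AI600643 lie in grid column 10, AI619100 in column 11 and AI861197 in column 9, in print blocks 19, 18, 27 and 19.

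For the departure, the spot of smallest p was BG842803, whose hybrids lay below the line within slides. Its medians were 10.40, 10.27 and 11.28 log2 in samples with 0, 1 and 2 copies, with ranges of 9.22 to 12.30, 8.12 to 12.25 and 9.02 to 12.22 that overlapped. Among the hybrids the medians of 250x301 and 301x250, 11.68 and 11.47, lay above that of 301x301. Within slides the hybrid lay below its 0-copy parent line on 14 of 18 slides (median -0.22 log2, -1.77 to 0.81), and 301x301 lay above its hybrid on 15 of 19 slides (median 0.35, -0.17 to 0.92). The departure was -0.30 ± 0.07 log2 (unadjusted limma p = 2.8e-05, adjusted p = 0.34) and the trend 0.05 ± 0.07. By partner line the departure was -0.51 ± 0.11 with line 002 (adjusted p = 0.014), -0.25 ± 0.11 with line 005 (adjusted p = 1) and -0.10 ± 0.12 with line 250 (adjusted p = 1). Without slide 917, where the difference of hybrid minus 250x250 was 0.813, the departure of BG842803 over all partners was -0.34 and passed the test (adjusted limma p = 0.032), the only spot to do so on leaving out any single slide.

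BG842075 was the leading spot on the other side, with hybrids above the line by 0.45 ± 0.11 log2 (unadjusted limma p = 0.00013, adjusted p = 0.65). It was a bright spot, at medians of 12.35, 12.98 and 12.53 log2 in samples with 0, 1 and 2 copies and above the blanks in 93.6% of the samples with 1 copy and 94.7% of those with 2 copies. Against line 002 the hybrid was higher on 5 of 7 slides and against line 005 on 4 of 6, with medians of 0.55 and 0.31 log2. The inbred 301x301 lay below its hybrid on 5 of 6 slides with each of these partners (medians -1.39 and -1.08), but on only 2 of 7 slides with partner 250 (median 0.13, -0.30 to 0.29). The departures per partner were 0.77 ± 0.18 with line 002, 0.55 ± 0.19 with line 005 and 0.07 ± 0.19 with line 250, and the F test of equal departures did not pass for any spot, as given below.

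The remaining spots named for the departure were higher in the 1-copy group for BM351785 (0.27 ± 0.07 log2), AW018114 (0.37 ± 0.10) and BG840757 (0.30 ± 0.09) and lower for AI974903 (-0.21 ± 0.05), AI861278 (-0.19 ± 0.05) and AI737256 (-0.22 ± 0.07). In 6 of the 8 spots named for the departure, the departure with partner 002 alone had an adjusted limma p under 0.05, against 0.904% of all spots tested. The 8 spots were picked by a fit that includes the slides of partner 002, so this count only describes them and is no separate evidence. For AW018114 the hybrid of lines 301 and 002 was above line 002 on 6 of 7 slides (median 0.81 log2) and 301x301 was below that hybrid on 6 of 6 slides (median -0.44). For AI974903 the hybrid was below line 002 on 7 of 7 slides (median -0.39) and 301x301 was above the hybrid on 6 of 6 slides (median 0.42). With partners 005 and 250 the departures of both spots lay between -0.13 and 0.16 log2.

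**Figure D2:**
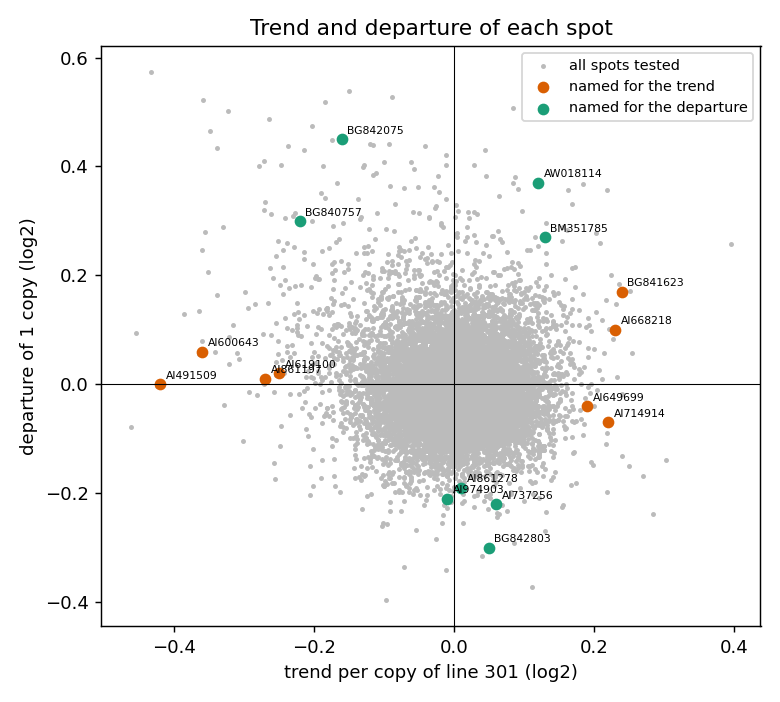
Each grey point is 1 of 11838 spots, its trend per copy of line 301 across and its departure of the 1-copy group up, both in log2; orange and green points are the spots named for the trend and for the departure. All spots lie in 1 cloud around 0, the 4 spots named as lower with more copies have departures between 0.00 and 0.06, and none of the coloured points passed the test.

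**Figure D3:**
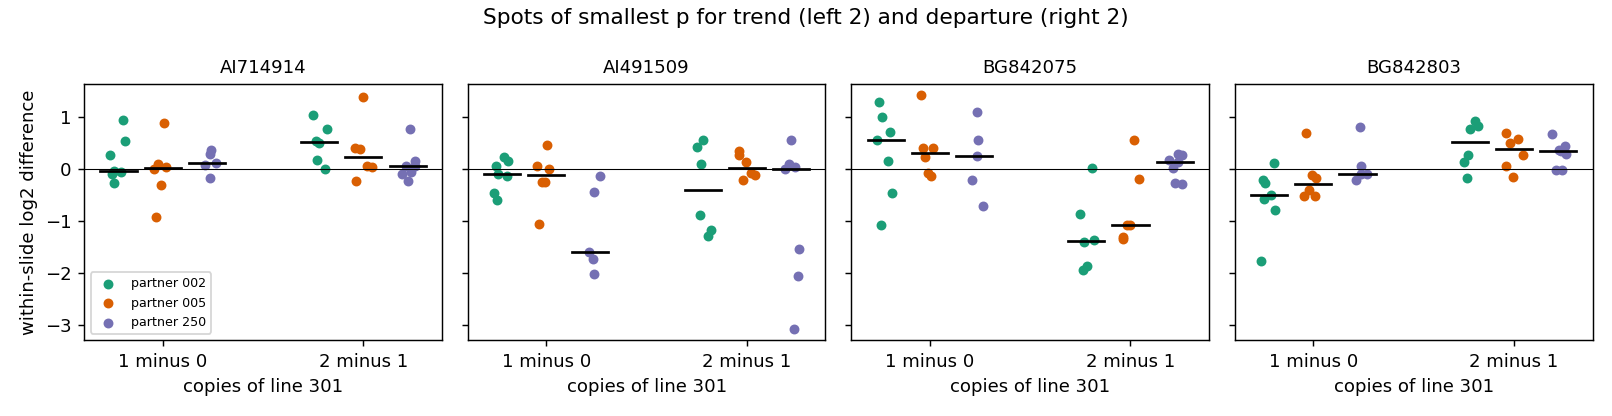
Points are slides, their height the log2 difference within the slide (sample with more copies minus sample with fewer), for the steps 1 minus 0 and 2 minus 1 and by partner line; black bars are medians. AI491509 falls below 0 mainly with partner 250, and BG842803 lies mostly below 0 at the first step and above 0 at the second.

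The steps from 0 to 1 and from 1 to 2 copies were measured on different slides and different samples, and they did not resemble each other. The step from 1 to 2 copies was called at 0 of 11838 spots by limma (0%; 477 at an unadjusted p under 0.05, 4.03%; smallest adjusted p = 0.797) and the step from 0 to 1 copy at 0 (0%; 286 unadjusted, 2.42%; smallest adjusted p = 0.836). Fitted on separate slides, the estimates had a Pearson correlation of -0.159 and a Spearman correlation of -0.15 across 11838 spots, and 45.2% of spots had the same sign in both steps. Of the 100 spots of smallest p in the step from 1 to 2 copies, 30% had the same sign in the step from 0 to 1, and of the 100 of smallest p in the step from 0 to 1 copy, 29% had the same sign in the step from 1 to 2. The correlation is across spots, which share slides and print positions and are not independent replicates.

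Spots of the same identifier give a second view of how repeatable the estimates are. For 402 identifiers with more than 1 tested spot, the Spearman correlation between spots of an identifier was 0.228 for the mean level, 0.104 for the trend and 0.0574 for the departure. These correlations are across identifiers. They describe the slides, how far an identifier stands for 1 clone and whether identifiers were joined to the right rows, which were not told apart. The brighter 5919 spots had an unadjusted p under 0.05 in 2.72% for the trend and 5.34% for the departure, against 1.93% and 2.5% of the dimmer 5919.

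The position of line 301 before or after the x made no difference that passed the test. The hybrid with line 301 named first minus its reciprocal with line 301 named second was called at 0 of 11838 spots (0%) by limma, with 711 at an unadjusted p under 0.05 (6.01%, 344 higher and 367 lower) and a smallest adjusted p of 0.733. This contrast was the least precise of those pooled over partners, with a median standard error of 0.119 log2. The spots of smallest p were AW011633 (0.51 ± 0.12 log2), AW126444 (0.68 ± 0.17) and AW017871 (0.50 ± 0.13) on the higher side, and AI941971 (-0.69 ± 0.18), AI770378 (-0.37 ± 0.10) and BG841745 (-0.42 ± 0.12) on the lower side (adjusted p = 0.73 for each). The 3 on the higher side all lie in grid row 1 of print blocks 1 and 2. On the 5 slides that set reciprocal hybrids against each other, AI941971 was lower with line 301 named first on 5 of 5 (-3.39 to -0.01 log2, median -0.66), and BG841745 likewise on 5 of 5 (-1.10 to -0.28, median -0.73). AI770378 was lower on 4 of 5 (median -0.34). AW011633 and AW126444 were higher on 5 of 5 (medians 0.31 and 0.30), and AW017871 on 3 of 5 (median 0.04). AW011633 was above the blanks in only 12.8% of the samples with 1 copy, and its lowest value there was 0.

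Among the 8 identifiers with a matched gene, no spot was called for the trend or the departure. Over their 10 spots the trend lay between -0.10 and 0.08 log2 per copy (smallest unadjusted limma p = 0.16) and the departure between -0.10 and 0.08 (smallest unadjusted p = 0.2). The only one with a description was AI665898, matched to LOC100191184, a reticulon; reticulons are membrane proteins that shape the tubules of the endoplasmic reticulum. The first of its spots lay at medians of 10.43, 10.33 and 10.96 log2 in samples with 0, 1 and 2 copies and had a trend of 0.08 ± 0.06 per copy (95% interval -0.05 to 0.21), and the second lay at 9.96, 10.11 and 10.59 with a trend of 0.02 ± 0.09. Both spots had nearly the same median in the 0-copy and 1-copy groups, and the ranges of the 3 groups overlapped. The others were AI691686 (LOC100272873, 2 spots, trends of 0.00 each), AI714808 (LOC100283464, -0.07 ± 0.07), AI901738 (LOC100383044, 0.07 ± 0.07), AI920398 (LOC100275582, -0.05 ± 0.08), AI987507 (LOC542198, -0.10 ± 0.07), AW257883 (LOC100279628, 0.04 ± 0.10) and AW400087 (LOC100500995, -0.06 ± 0.08). Lists of ribosomal proteins, histones, tubulins and actins, superoxide dismutases, peroxidases, glutathione S-transferases, aquaporins, expansins and cell wall enzymes had no member that could be named.

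The trend per copy differed between the 3 partner lines at some spots. Fitted per partner, it runs from the partner inbred line through the hybrids to 301x301, which all 3 partners share. Unequal trends thus compare lines 002, 005 and 250, on their slides, by way of 301x301. They do not measure whether a copy of line 301 acts differently with each partner. An F test that the trend per copy is equal over the 3 partner lines was called at 86 of 11838 spots (limma, adjusted p under 0.05, 0.726%; 1464 at an unadjusted p under 0.05, 12.4%), with a smallest adjusted p of 0.00177. In 83 of these 86 spots the trend with partner 250 was negative, and in 80 the trend with partner 005 was positive. In 81 the 2 had opposite signs. The F test picked these spots for unequal trends, so the sign counts only describe the selection. Over all 11838 spots, with each partner fitted on its own slides, the trends with partners 005 and 250 had the same sign at 34.7%. The median trend over the 86 spots was -1.02 log2 per copy with partner 250, 0.61 with partner 005 and 0.02 with partner 002, and -0.11 in the fit that pools the partners. The departures per partner were not shown to differ: the F test of equal departures was called at 0 spots (0%; 856 at an unadjusted p under 0.05, 7.23%; smallest adjusted p = 0.409).

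Singly, the trend with partner 250 was called at 187 spots (1.58%; 1132 at an unadjusted p under 0.05, 9.56%), of which 182 were lower and 5 higher with more copies of line 301, with effects from -1.93 to 1.88 log2 per copy. The trend with partner 002 was called at 1 spot (0.00845%; 997 at an unadjusted p under 0.05, 8.42%), BE056906, named after its value was seen (-0.55 ± 0.10 log2 per copy, adjusted limma p = 0.016). The trend with partner 005 was called at 0 spots (0%; 428 at an unadjusted p under 0.05, 3.62%). Of the 86 spots with unequal trends, 71 were also called with partner 250. Over all spots, the Pearson correlation between the trends of partners 005 and 250 was -0.609, between 002 and 250 it was -0.0954 and between 002 and 005 it was 0.0235. Each of these trends was fitted on its own slides, and the spots share their print positions.

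The 3 spots of smallest p for unequal trends were AW066750, AI586461 and AW787311 (F = 17.9, 17.8 and 16.8, adjusted limma p = 0.0018 each). AW066750 was lower in the hybrid than in 250x250 on 5 of 5 slides, by -0.459, -1.598, -1.498, -0.565 and -2.724 log2, whereas the hybrid was higher than its 0-copy parent on 6 of 7 slides with line 002 (median 1.08, -0.02 to 2.49) and on 5 of 6 with line 005 (median 1.14, -0.35 to 1.60). At the step from 1 to 2 copies it was lower in 301x301 than in the hybrid on 5 of 7 slides with partner 250 (median -0.74, -3.65 to 0.48) and higher on 4 of 6 with partner 005 (median 0.59, -1.68 to 1.16). Its trends were 0.61 ± 0.23 with line 002, 0.52 ± 0.24 with line 005 and -1.17 ± 0.24 with line 250.

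AI586461 moved in the same directions, with trends of 0.77 ± 0.29, 0.89 ± 0.30 and -1.35 ± 0.30 log2 per copy for partners 002, 005 and 250. Its hybrid minus 250x250 was -0.524, -2.15, -2.002, -0.428 and -3.271, against a hybrid higher than line 002 on 7 of 7 slides (median 1.49) and higher than line 005 on 5 of 6 (median 1.44). AW787311 had trends of 0.52 ± 0.29, 1.06 ± 0.30 and -1.34 ± 0.31, and its hybrid was lower than 250x250 on 5 of 5 slides (median -1.75). For all 3 spots the levels themselves overlapped between genotypes: AI586461 had medians of 13.52 log2 in 250x250 (0.00 to 17.31), 14.21 in 250x301 (13.17 to 16.48), 15.66 in 301x250 (13.36 to 18.07) and 13.85 in 301x301 (0.00 to 15.92). The values of 0.00 are deposited as such in both samples of a slide (slide 999 among them), and the within-slide difference there is 0. Very high values were likewise kept as deposited: AI586461 reached 20.58 log2 in a 002x002 sample and 20.76 in a 002x250 sample, and AW787311 reached 19.57 in a 005x005 sample.

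**Figure D4:**
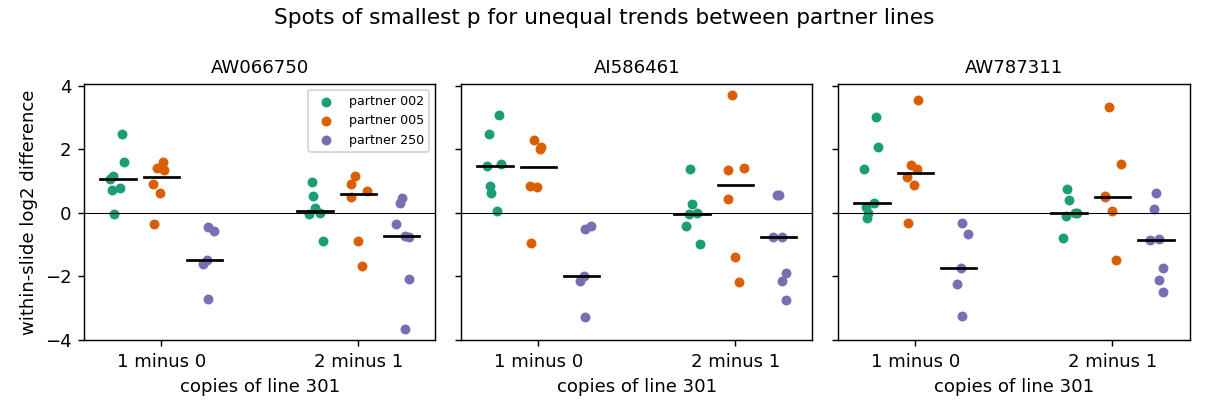
Points are slides, their height the log2 difference within the slide (sample with more copies of line 301 minus sample with fewer), by step and by partner line; black bars are medians. At the step 1 minus 0, all 5 slides with partner 250 lie below 0 in each of the 3 spots, while the medians with partners 002 and 005 lie above 0.

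Position on the slide moved with these calls. Grid columns 10 and 11 hold 10.7% of the spots tested (1265), but 54% of the 187 spots called with partner 250 and 55 of the 86 spots with unequal trends (64%). The called spots were also brighter than the rest, with a median level of 11.15 log2 for those called with partner 250 and 12.58 for those with unequal trends, against 10.18 over all spots. Centring each slide's differences within each grid column kept 178 of the 187 calls (218 in all) and 84 of the 86. Centring within print blocks kept 182 of the 187 (346 in all) and 86 of the 86 (270 in all). Both centrings subtract a median and so remove only a shift shared by most spots of a column or block. In columns 10 and 11, the spots called with partner 250 were 51 of 635 and 50 of 630 tested. A shift of such a minority would remain, so the kept calls do not show the part of print position, which was not tested.

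**Figure D5:**
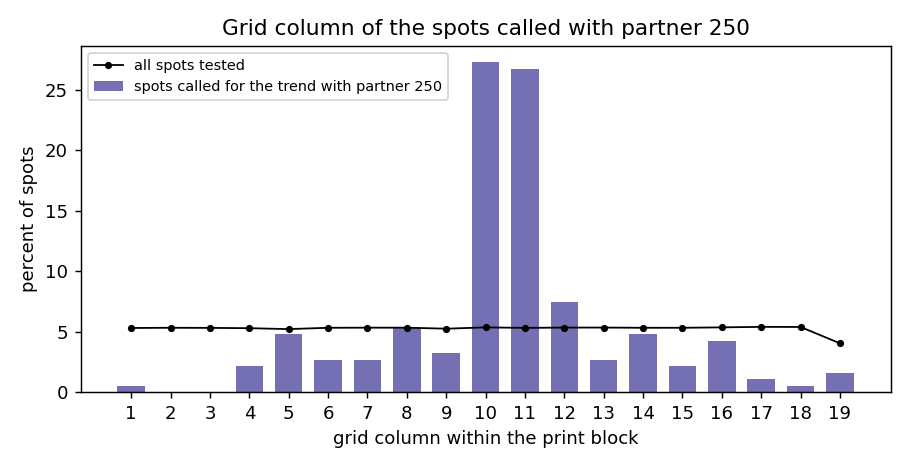
Bars show the percent of the 187 spots called for the trend with partner 250 that lie in each of the 19 grid columns of the print blocks, and the black line the same for all 11838 spots tested. Columns 10 and 11 hold 54% of the called spots and 10.7% of the spots tested.

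The partner 250 result also rested on some slides more than on others. Averaged over the 182 spots called lower, a description of the spots the test picked, the difference of more minus fewer copies was below 0 on 10 of the 12 slides, and it was beyond -1 log2 on 6 of them: -1.29 on slide 39, -1.74 on 57, -2.13 on 58, -1.51 on 59, -1.29 on 917 and -2.02 on 920. The sample with more copies was in Cy5 on 4 of these slides and in Cy3 on 2. On slides 916 and 924 the average was 0.20 and 0.39. Leaving out slide 920 left 11 spots called and leaving out slide 916 gave 259; without slides 39, 57, 58, 59 or 917 the count was 76, 43, 20, 47 or 63. With partner 250 restricted to slides 0 to 61, 13 spots were called, and restricted to slides 916 to 999, 0 were; the median trends over the 182 spots called lower were -0.958 and -0.472 log2 per copy, a description only, since the fit on both sets of slides had picked these spots. With array quality weights 7 spots were called, and 9 with scanner intensities. Those settings called 0 spots for unequal trends between partners. Unequal trends fell to 0.456%, 0.287%, 0.169%, 0.186% and 0.169% of spots without slides 4, 39, 57, 58 and 59, to 0.448%, 0.22% and 0.397% without 287, 298 and 299, and to 0.127% and 0.11% without 917 and 920. They rose to 1.29% without slide 38, 1.71%, 1.38% and 1.59% without 291, 302 and 304, 1.14% without 558 and 1.37%, 1.66% and 1.49% without 916, 918 and 924.

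The partner lines are not spread evenly over the slides. Line 250 was paired with line 301 on slides 0 to 61 and 916 to 999, line 005 on slides 0 to 61 and 273 to 309, and line 002 on slides 471 to 561 and 916 to 999, so that partner line and slide number cannot be fully told apart. Signal moved with the partner too: the median share of spots above the blanks was 83.3% in 250x301 and 72.7% in 301x250, 58.1% in 005x301 and 65.6% in 301x005, and 28.7% in 002x301 and 23.8% in 301x002. The part of signal in the differences between partners was not tested.

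With partner 002 the departure was called at more spots than the trend. The hybrids of lines 301 and 002 left the midpoint of their parents upwards at 59 spots and downwards at 48 (limma, together 0.904% of spots; 1820 at an unadjusted p under 0.05, 15.4%), with departures from -0.61 to 1.10 log2 and a smallest adjusted p of 0.0138. With partners 005 and 250 the departure was called at 0 spots each (0%; 1.63% and 1.30% of spots at an unadjusted p under 0.05). These calls were spread over the grid columns, with 12 (11.2%) in columns 10 and 11. Since the F test of equal departures called no spot, departures with line 002 are not shown to differ from those with the other partners. The spots nearest to such a difference were AI691720 (-0.47 ± 0.10 log2 with line 002, 0.03 ± 0.10 with 005 and 0.15 ± 0.10 with 250), AI603703 (0.72 ± 0.18, 0.03 ± 0.18 and -0.46 ± 0.19) and AW399973 (-0.54 ± 0.12, -0.08 ± 0.12 and 0.21 ± 0.12), each with an adjusted limma p of 0.41.

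AI691720 was lower in the hybrid than in line 002 on 7 of 7 slides (median -0.47 log2) and higher in 301x301 than in that hybrid on 6 of 6 (median 0.53), whereas its hybrid with line 250 was higher than 250x250 on 5 of 5 slides (median 0.45). AW399973 showed the same directions on 7 of 7, 6 of 6 and 5 of 5 slides, with medians of -0.43, 0.53 and 0.40. The count of departures with partner 002 moved with single slides. With values under 3 set to missing, 100 of these calls were kept, and with print block centring 55 were. With partner 002 restricted to slides 471 to 561, the departure was called at 0.718% of spots and the trend at 1.28%; restricted to slides 916 to 999, the departure was called at 2.15% and the trend at 0.0169%. Without slides 998 and 999, which hold many values under 3, 11 spots (0.0929%) were called. Leaving out slide 559, 930, 998 or 999 lowered the calls to 0.566%, 0.321%, 0.372% or 0.515% of spots, and leaving out slide 557, 558, 925 or 929 raised them to 1.73%, 2.56%, 1.36% or 1.37%. Array quality weights, the scanner intensities and the fit with all slides called 0 spots each for this departure.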

How the data were processed

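Primary roots of 16 maize genotypes were measured on 2-colour cDNA slides, 1 sample per channel. The deposited value table holds log2 values made by the authors from 1 chosen scan per channel, per the deposited notes. How these were normalized was left unstated by the labels and headers read here. Deposited scanner tables hold spot intensity per scan at rising photomultiplier gain, per the deposited notes, and served as an alternative after their rows were turned into the order of the value table. The identifiers also come from a scanner table, but were joined to the value table by row number, without this turn. Whether the identifiers follow the order of the value table was not tested. All named identifiers, matched genes, repeated identifiers and blank spots depend on it. Another 18 scan columns match no labelled sample and were not used. Dyes were taken from the sample titles, except on slide 930, where both titles give Cy3 and the label field was used. The label field gives another dye than the title on 11 slides, 7 of them with line 301, and served as an alternative; this bears on the dye covariate and not on which sample has more copies. Values above 20 log2 (167 of them) and zeros were kept as deposited.

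Slides 0, 1, 18, 19, 48, 288, 289 and 472 were left out, as were spots without an identifier and 11 identifiers printed 12 times. Within-slide log2 differences (Cy5 minus Cy3, equal to slide as a fixed block) of 11838 spots were fitted in limma 3.58.1 (R 4.3.3) on the difference in copies of line 301 and in the 1-copy indicator, with an intercept for the dye, on 73 residual degrees of freedom. Origin terms and terms per partner line were added for those tests. P-values were adjusted by Benjamini-Hochberg over all spots. The fitting code was run on data simulated on the same design with planted effects and independent noise at each spot. That run cannot show how the fits behave where noise is shared between spots. The dye effect was called at 15.3% of spots. Each RNA sample is an independent biological replicate, per the series text, and each lies on 1 slide. The precision is limited by the number of slides; no counts underlie the values. Repeated titles give every sample its own number, so numbers pair no samples beyond the slide.

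Named spots are, for trend and departure, the called ones and otherwise the 4 of smallest p in each direction; for origin the 3 of smallest p in each direction; for the F tests the 3 of smallest p; and all with a matched gene. The members, lists and tests were chosen with earlier results of these data known. The matched genes come from the table of maize RefSeq genes, through its synonyms. Alternatives covered centring, loess, scanner intensities, slide as a random block, a model of 16 genotypes, all slides, dyes of the label field, array weights, filters on spots, partner lines, slide ranges and single slides left out.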

Additional observations from a re-analysis of the deposited data

Results flagged for a closer look

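The trends per copy of line 301 differed between partner lines at 86 spots by the F test itself (limma, adjusted p under 0.05), among them AW066750 (F = 17.9), AI586461 (F = 17.8), AW787311 (F = 16.8) and AI491509 (F = 9.74), the last also named for its trend. Single samples stood apart from the others of their genotype by Dixon's criterion in 5 of 42 groups examined. Chance gives about 1 in 20 for independent groups of normally distributed values. The groups here share samples and hold deposited zeros, so their share cannot be set against that rate. The level of AW066750 was 0 in the 301x002 sample on slide 999, against a median of 12.09 log2 over the 9 samples of that hybrid, and the level of AI586461 was 0 in the same sample, against a median of 14.3. The level of AW787311 was 0 in the 002x301 sample on slide 561 (median 11.35, 8 samples) and 8.8 in the 301x005 sample on slide 302 (median 15.42, 7 samples). The level of BG842803 was 8.98 in the 250x301 sample on slide 31 (median 11.68, 8 samples). Both samples of slides 561 and 999 hold many values under 3, and the within-slide difference at AW066750, AI586461 and AW787311 on slide 999 was 0.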

How the results depend on the processing

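The 0 calls for the trend and for the departure held under most alternatives, with these exceptions: without partner 005 the trend was called at 3 spots (0.0253% of those tested, AI491509 at -0.60 and AI600643 at -0.57 among them), and without slide 917 the departure was called at 1 spot (0.00845%). Counts are given here as percents of the spots tested, where the main values were 0.00845% for the trend with partner 002, 1.58% for the trend with partner 250, 0.904% for the departure with partner 002 and 0.726% for unequal trends. Leaving out each of the 42 slides with line 301 in turn gave 0% to 0% for the trend, 0% to 0.00845% for the departure, 0% to 0.0422% for the trend with partner 002, 0.0929% to 2.19% for the trend with partner 250, 0.321% to 2.56% for the departure with partner 002, 0% to 0.00845% for the departure with partner 005 and 0.11% to 1.71% for unequal trends. In every such fit, 8 of the 187 spots of partner 250, 15 of the departures with partner 002 and 13 of the 86 unequal trends were called. The step from 1 to 2 copies was called at 0.00845% with slide as a random block and without partner 250 and 0.0169% on slides 0 to 61 alone, and the step from 0 to 1 copy at 0.076% without partner 250 and 0.00845% with print block centring. Scanner intensities called 0.0169% for the trend with partner 002, 0.076% with partner 250, 0% for the departure with partner 002 and 0% for unequal trends. All slides called 0%, 0.98%, 0% and 0.0338% for the same, and array quality weights 0%, 0.0591%, 0% and 0%, with 0.00845% for the name order of line 301 and 0.0169% for the departure with partner 250. Unequal trends were called at 1.47% with loess, 2.86% among spots above the median level, 2.28% with print block centring and 1.76% with a dye effect per slide range. The departure with partner 002 was called at 2.72% of spots above the median level and 0.0929% without slides 998 and 999. The trend with partner 250 was called at 2.92% with print block centring, and the trend with partner 002 at 0.118% there, 0% with the dyes of the label field, and 0.0169% without slides 998 and 999 and with a dye effect per slide range. With partner 250 on slides 0 to 61 only, its trend was called at 0.11% and unequal trends at 0.0169%; on slides 916 to 999 only, both at 0%. With partner 002 on slides 471 to 561 only, its trend was called at 1.28% and unequal trends at 2.7%; on slides 916 to 999 only, its trend at 0.0169%, its departure at 2.15% and unequal trends at 1.17%. The difference in spread turned to -0.07932 with scanner intensities, -0.001655 with all slides, -0.03294 without partner 002, -0.02372 on slides 0 to 61 alone, -0.0777 on slides 273 to 309 alone and -0.006389 without slides 916 to 999. Signs turned for AI770378 by name order (0.07 on slides 0 to 61 alone), AI600643 in trend (0.06 on slides 273 to 309 alone) and BG841623 and AI491509 in trend (-0.06 and 0.01 on slides 471 to 561 alone). The cause of these changes was not tested, beyond the fewer slides or spots of a setting. Print block and grid column centring, the settings on slides 998 and 999, on values under 3, on dyes per range, on single slides for counts and on 1 range per partner were chosen after seeing the data. Tests per partner were not run with slide as a random block or in the model of 16 genotypes. Replicate numbers pair no samples, since every sample has its own number; samples are paired by slide, which is the block of each main fit. Signal over background limits the dim spots.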

Other observations

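The 182 spots called lower with partner 250 were also read on 11 slides that the contrast did not use, which set 250x250 against its hybrids with lines 002 and 005. Averaged over these spots, line 250 minus its hybrid was above 0 on 5 of the 11 slides, with a median of -0.09 and a range of -0.64 to 1.33 log2. Against the hybrids with line 250 named first, 250x005 and 250x002, the differences were 1.33, 0.72, 0.88, -0.64, 0.61 and 0.59, and against those with line 250 named second, 002x250 and 005x250, they were -0.09, -0.23, -0.35, -0.39 and -0.46. By the sample titles, line 250 was in Cy5 on 4 of the 6 slides of the first kind (0.72, 0.88, 0.61 and 0.59) and on 1 of the 5 of the second kind (-0.35). On slides 941 and 945, both of the second kind (-0.39 and -0.46), the title gives Cy3 for 250x250 and the label field Cy5. The split by name order was noticed in the data and was not tested.

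Of the 5 spots called higher with partner 250, AW927398 had the largest trend, 1.88 ± 0.43 log2 per copy (adjusted limma p = 0.0092), and AW331220, AW017952, AW355980 and AW091319 had 0.64 ± 0.17, 0.44 ± 0.12, 0.43 ± 0.12 and 0.37 ± 0.10. They are named here after their values were seen.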
